A study of Mus musculus with 2 samples.

Results

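The Krüppel-like factors (KLFs) are transcription factors that bind GC-rich and CACCC-type DNA through zinc fingers at the C-terminal end of the protein. The 10 genes described here are Klf2, Klf3, Klf4, Klf5, Klf6, Klf7, Klf9, Klf10, Klf11 and Klf13. They were chosen by name, through every probe set (a group of short probes for the same transcript) whose only annotated gene symbol is one of the 10. These were 34 probe sets of 34945 with 1 symbol, and 10 genes of 18193.

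Expression was measured in hearts of 10-week-old male C57BL/6J mice, 3 days after myocardial infarction (MI) or 3 days after sham surgery. The left anterior descending branch of the coronary artery was ligated permanently for MI and was not ligated in sham mice. RNA of 3 hearts was mixed in each group and hybridised to 1 array, so that the data consist of 1 infarct pool and 1 sham pool. The labels give heart as the tissue and do not say which region of the infarcted heart was taken. With no replicate, no test between the groups was possible, the spread between mice is unknown, and each difference below is the infarct pool minus the sham pool on the log2 scale. The only spread available is that between probe sets of the same gene, with a pooled SD of 0.23 over 5190 genes, which covers the probes and not the mice.

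KLFs fall into subfamilies by what their N-terminal parts bind. KLF2, KLF4, KLF5, KLF6 and KLF7 are mostly transcriptional activators that recruit acetyltransferases, KLF3 represses through the corepressor CtBP, and KLF9, KLF10, KLF11 and KLF13 bind the SIN3 corepressor. In the heart and vessels, KLF2 and KLF4 are known for endothelial quiescence, KLF5 for smooth muscle and fibroblast activation, and KLF9 as a target of glucocorticoid and thyroid hormone receptors.

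With the values as deposited, most of the 10 genes differed little between the pools, and the exceptions were Klf9, lower after MI, and Klf6, higher after MI except with the housekeeping genes as zero. A gene was compared by its brightest probe set if that was bright, that is, not below the array median in at least 1 pool, a rule that 9 of the 10 genes passed. Klf5 was dim, that is, below the median in both pools. Of the 9, 4 were higher and 5 lower in the infarct pool, with a median difference of -0.075, while 49.5% of the 11961 genes compared were higher and their median was 0.00. In all, 7 of the 9 lay within 0.25 of 0, as did 50.8% of all genes. None of the 9 reached a 2-fold difference (1 on the log2 scale) in either direction, against 3.73% of all genes that were at least 2-fold higher (446 genes) and 1.26% that were at least 2-fold lower (151 genes).

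These counts depend on the zero of the scale. Of the 9 housekeeping genes measured, Gusb (1.12), Actb (0.82) and Ywhaz (0.55) were the highest. Another bright probe set of Actb lay at -0.62, so their mean rests in part on the probe set chosen for Actb. The poly-A controls had a mean difference of 0.035, and centring on them left 4 members above 0 and 5 below. The mean difference of the 9 housekeeping genes was 0.47, and that of the hybridisation controls, transcripts added at the hybridisation step, was -0.32. Centring on the former moved the median of all genes by -0.47, placed all 9 members below 0 and 2 of them within 0.25 of it (20.9% of all genes), and gave 152 genes 2-fold higher and 936 lower. Centring on the latter moved it by 0.32, placed 8 of the 9 members above 0 and 4 of the 9 within 0.25 of it (35.4% of all genes), and gave 962 higher and 40 lower. Klf9 was the member that kept its side of 0 under every one of the 11 alternative settings.

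**Figure D1:**
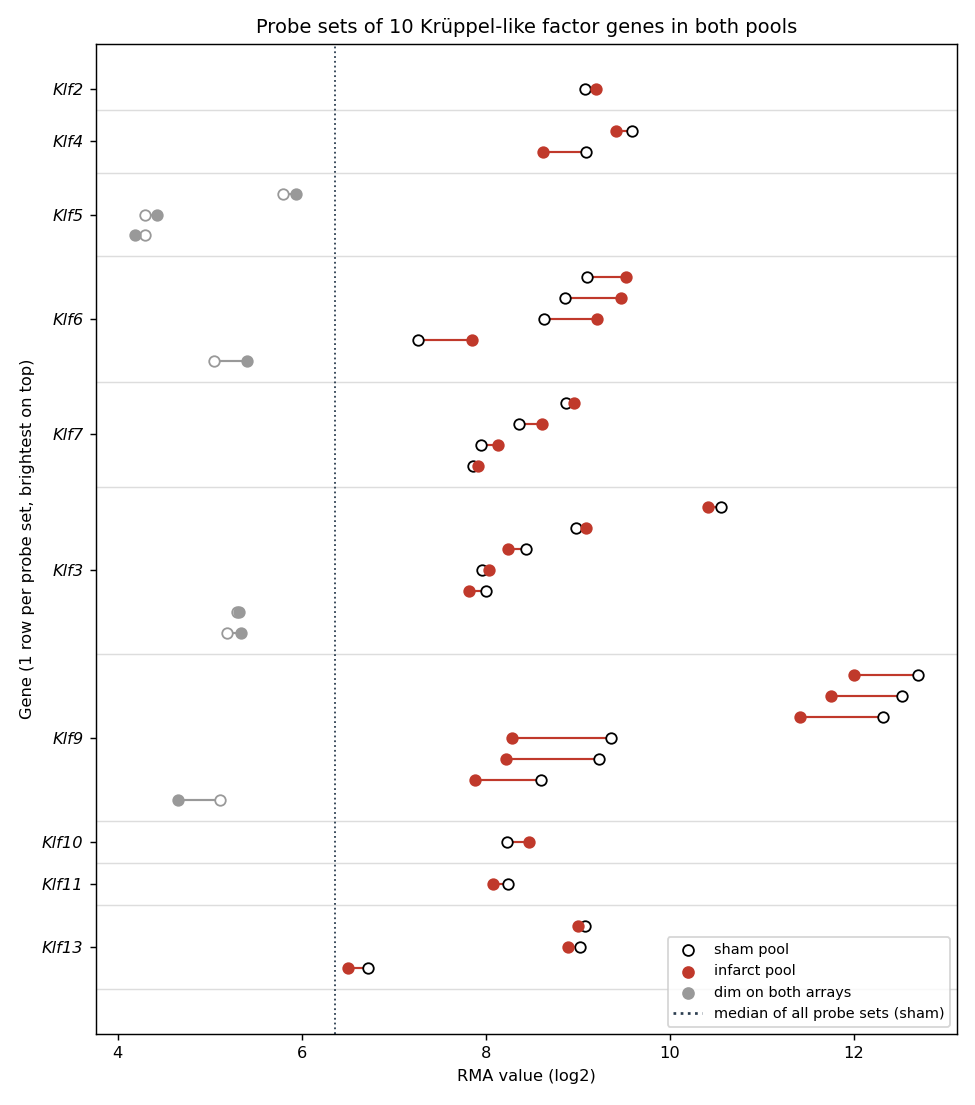
RMA value (log2) of each of the 34 probe sets of the 10 genes, 1 row per probe set, as an open circle for sham and a red one for MI, with probe sets dim on both arrays in grey. All 7 rows of Klf9 run to the left in the infarct pool and all 5 of Klf6 to the right, while the 3 rows of Klf5 lie left of the dotted median of all probe sets.

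Klf9 had the largest difference of the 10 genes. Its brightest probe set, 1456341_a_at, gave 12.70 (sham) and 12.00 (MI), a difference of -0.70 (1.63-fold lower). Only 476 of the 11961 genes compared (3.98%) had a lower difference.

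The other probe sets of Klf9 pointed the same way. The values were 12.53 (sham) and 11.75 (MI) at 1428288_at, and 12.32 and 11.41 at 1428289_at. Both probe sets thus differed by more than the first one, by -0.77 and -0.91. Of the others, 1436763_a_at gave 9.36 (sham) and 8.28 (MI), 1422264_s_at gave 9.23 and 8.22, and 1436952_at gave 8.60 and 7.89. The first 2 of these gave the lowest values of the whole set, -1.07 and -1.01, and thus passed 2-fold, while 1436952_at gave -0.72. The seventh probe set, 1452723_at, was dim on both arrays (5.11 and 4.65) and differed by -0.45.

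Over the 6 bright probe sets, the mean difference of Klf9 was -0.86 ± 0.16 (SD between probe sets, n = 6 probe sets of the same RNA). The 2 of them past 2-fold were the only such probe sets among the 27 bright ones of the 10 genes, where 1.19% of all bright probe sets with 1 symbol were at least 2-fold lower and 3.52% at least 2-fold higher. That count of 2 became 1 after centring on the median, 6 on the housekeeping genes and 0 on the hybridisation controls. Of the 787 genes with at least 4 bright probe sets, 9 (1.14%, Klf9 included) had all of them at or below -0.70, a limit set by Klf9 itself after its values were seen. The 7 probe sets of Klf9 ranged from -1.54 to -0.92 after centring on the housekeeping genes, and from -0.76 to -0.14 after centring on the hybridisation controls.

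Klf6, which encodes a widely expressed activator and is known as a gene induced by tissue injury, was the highest of the 10. Its brightest probe set, 1427742_a_at, gave 9.09 (sham) and 9.52 (MI), a difference of 0.43 (1.34-fold). In all, 1864 genes (15.6%) had a higher difference. The other bright probe sets were 1433508_at (8.86 and 9.47), 1447448_s_at (8.63 and 9.21) and 1418280_at (7.26 and 7.85). They differed by 0.61, 0.58 and 0.58, more than the probe set that stands for the gene. A further probe set, 1459718_x_at, was dim (5.05 and 5.40) and differed by 0.36.

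The 4 bright probe sets of Klf6 had a mean difference of 0.55 ± 0.085 (SD between probe sets, n = 4 probe sets). Among the genes with at least 4 bright probe sets, 38 (4.83%, Klf6 included) had all of them at or above 0.43, a limit set in the same way by Klf6. This direction rests on the zero of the scale: with the housekeeping genes as zero, the brightest probe set lay at -0.041, the 5 ran from -0.11 to 0.15, and 3 of them stayed above 0. After centring on the hybridisation controls they ran from 0.67 to 0.93.

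Promoter sequences of RefSeq (GRCm38.p6) were given for 8 of the 10 genes, not for Klf5 or Klf10. The 250 bases before the transcription start are given here for Klf9 and Klf6, the members with the largest differences, and for Klf2, which alone among the 8 held a MEF2 box. The windows are chr19:23140976-23141225 (plus strand) for Klf9, chr13:5861239-5861488 (plus strand) for Klf6 and chr8:72318812-72319061 (plus strand) for Klf2. Capitals mark CCAAT on either strand in Klf9 and Klf6, and the MEF2 box in Klf2.
Klf9: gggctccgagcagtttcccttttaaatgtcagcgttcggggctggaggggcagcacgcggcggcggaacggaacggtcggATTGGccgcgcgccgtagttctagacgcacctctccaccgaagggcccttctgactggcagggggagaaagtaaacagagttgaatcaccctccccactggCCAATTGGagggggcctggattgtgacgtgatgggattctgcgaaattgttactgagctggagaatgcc
Klf6: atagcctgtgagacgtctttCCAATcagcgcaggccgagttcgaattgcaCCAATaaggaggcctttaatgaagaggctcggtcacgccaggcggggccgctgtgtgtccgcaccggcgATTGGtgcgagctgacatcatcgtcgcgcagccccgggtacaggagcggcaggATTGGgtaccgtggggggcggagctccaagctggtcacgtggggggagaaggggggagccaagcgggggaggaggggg
Klf2: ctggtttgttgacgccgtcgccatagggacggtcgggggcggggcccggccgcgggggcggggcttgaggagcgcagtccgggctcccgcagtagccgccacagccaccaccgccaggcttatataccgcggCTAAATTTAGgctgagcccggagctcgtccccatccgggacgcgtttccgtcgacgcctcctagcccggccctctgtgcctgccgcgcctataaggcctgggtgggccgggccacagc

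The window of Klf6 held 4 matches to CCAAT and that of Klf9 held 3, of which the pair between 69 and 62 bases before the start overlaps. Among 32851 promoter windows of the same length, 33.8% held at least 1 match, 2.79% at least 3 and 0.840% at least 4. Among the members, 4 of the 8 windows had CCAAT, with 2 matches each in Klf11 and Klf13 besides.

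The KLF-type motif CACCC stood in 5 of the 8 windows (52.0% of all windows), once each in Klf2, Klf9 and Klf13, 3 times in Klf7 and 5 times in Klf3. GGGCGG, the core of the GC box, was found in 7 of the 8 (32.7% of all), the exception being Klf9. TGACG, a cAMP response half-site, was found in 4 of the 8 (17.8% of all). TATAAA (12.4% of all) and the SRF CArG box (1.47% of all) had no match in the 8 windows, and the MEF2 box of Klf2 was shared by 1.69% of all windows. Both strands were searched for each motif, and GGGCGG and CACCC can overlap in GC-rich sequence. The windows of the members had a median GC content of 71.4% (59.2% to 78.4%), against 52.4% over all windows. A match here is a description of letters and was not tested for binding.

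The 4 activators compared had a median of 0.096 (3 above 0, and 0 after centring on the housekeeping genes). Of those other than Klf6, the endothelial factors Klf2 and Klf4 lay close to 0. Klf2, which shear stress induces in endothelial cells, was measured by 1 probe set (1448890_at) at 9.08 (sham) and 9.19 (MI), a difference of 0.12. Klf4, known for pluripotency and for phenotypic switching of smooth muscle, was at 9.59 and 9.42 by its brightest probe set (1417394_at), a difference of -0.17. Its other probe set, 1417395_at, gave 9.09 and 8.62, a difference of -0.47. The pair of probe sets shared a direction, with a mean of -0.32 ± 0.21 (SD, n = 2 probe sets), although the brighter one lay within the pooled SD of 0.23 from 0. With the housekeeping genes as zero Klf2 lay at -0.35, and after centring on the hybridisation controls Klf4 lay at 0.15.

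Klf7, best known from neurons, was higher on all of its 4 probe sets, by small amounts. Its brightest probe set (1419354_at) gave 8.88 (sham) and 8.95 (MI), a difference of 0.076. The others were 1449439_at (8.36 and 8.61, difference 0.24), 1419356_at (7.95 and 8.14, 0.19) and 1419355_at (7.86 and 7.91, 0.056). Their mean was 0.14 ± 0.090 (SD, n = 4 probe sets), and the brightest one was at -0.39 with the housekeeping genes as zero.

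Klf5 was too dim to be compared. Its probe sets were at 5.80 and 5.94 (1451021_a_at), 4.30 and 4.43 (1451739_at), and 4.30 and 4.19 (1430255_at) in the sham and infarct pools. All 6 values lay below the array medians of 6.36 (sham) and 6.35 (infarct), and the signs were mixed. Klf5 thus did not pass the rule, and no difference was read for it. Whether its values stand above the background of the arrays was not tested.

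Klf3, the CtBP-binding repressor among the 10, had 7 probe sets that went both ways. The brightest, 1454666_at, gave 10.56 (sham) and 10.41 (MI), a difference of -0.15. Lower as well were 1431630_a_at (8.43 and 8.24, -0.19) and 1441200_at (8.00 and 7.82, -0.18), and higher were 1429360_at (8.98 and 9.09, 0.11) and 1421604_a_at (7.95 and 8.03, 0.081). Of the 5 bright ones, 3 were thus lower and 2 higher, with a mean of -0.066 ± 0.15 (SD, n = 5 probe sets). The 2 dim ones, 1442920_at (5.30 and 5.32) and 1458487_at (5.19 and 5.34), differed by 0.023 and 0.15. Klf3 was the exception among the 6 members with at least 2 bright probe sets, as the other 5 had all of theirs on the same side of 0. Among all 5190 genes with at least 2 bright probe sets, 68.9% had them on the same side. With at least 4 bright probe sets, the count was 3 of 4 members (Klf6, Klf7 and Klf9, not Klf3) and 52.2% of 787 genes.

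The 4 SIN3-binding factors had a median of -0.12 (1 above 0, and 3 after centring on the hybridisation controls), and those other than Klf9 differed by less than 0.25. Klf10 and Klf11 are also known as TGF-β-inducible early genes. Klf10 (1416029_at) was at 8.23 (sham) and 8.46 (MI), a difference of 0.24. Klf11 (1437241_at) was at 8.24 and 8.08, a difference of -0.16. Each rests on 1 probe set. With regard to Klf13, a cofactor of GATA4 in the developing heart, the brightest probe set (1436316_at) gave 9.08 and 9.0, a difference of -0.075. Its other probe sets, 1432543_a_at (9.02 and 8.89) and 1456030_at (6.72 and 6.50), differed by -0.14 and -0.22, so that all 3 were lower, with a mean of -0.14 ± 0.072 (SD, n = 3 probe sets). Klf10 changed its sign after centring on the housekeeping genes (-0.23), and Klf11 (0.16) and Klf13 (0.24) did so after centring on the hybridisation controls.

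**Figure D2:**
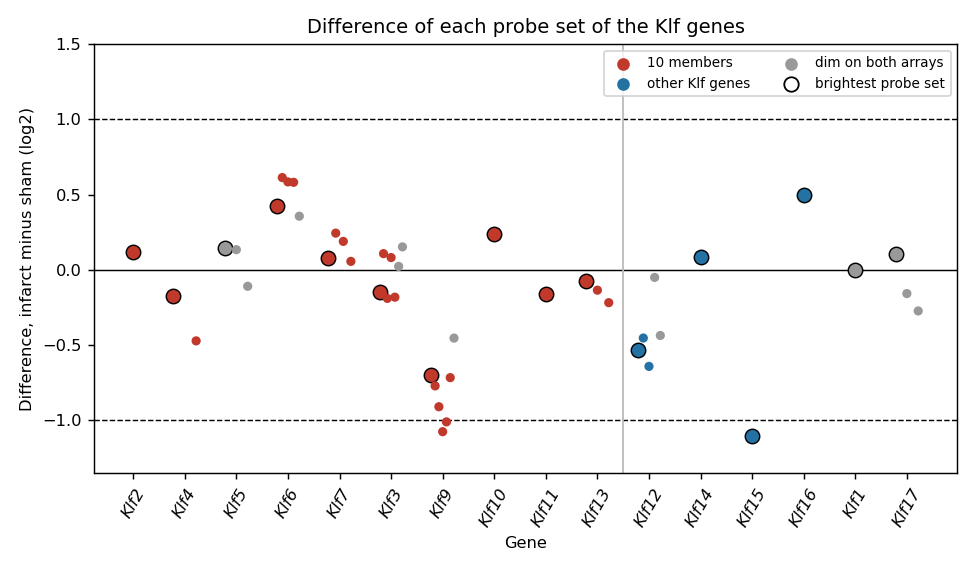
Difference (infarct minus sham, log2) of each probe set of the 10 genes (red) and of 6 other Klf genes (blue), with the brightest probe set of a gene ringed, dim ones in grey and dashed lines at 2-fold. The bright probe sets of Klf9 (-1.07 to -0.70) and that of Klf15 (-1.10) lie lowest, with the dim one of Klf9 at -0.45. Of the ringed points, those of Klf6 (0.43) and Klf16 (0.49) lie highest.

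Of the remaining Klf genes, 6 were on the array and 4 were bright enough to be compared (2 higher and 2 lower, median -0.22; 1 and 3 after centring on the housekeeping genes). Klf15, a glucocorticoid-responsive regulator of lipid and amino acid metabolism in the heart, was 2.15-fold lower after MI, at 9.63 (sham) and 8.52 (MI), a difference of -1.10. Of the genes compared, 0.836% were lower still. This is a larger difference than that of the probe set standing for Klf9, and close to the lowest one of Klf9. Klf15 has 1 probe set, and it lay at -0.78 after centring on the hybridisation controls. Klf12, a CtBP-binding repressor like KLF3, differed by -0.53 at its brightest probe set (9.24 and 8.71), and its 3 bright probe sets averaged -0.54 ± 0.095 (SD). The SIN3-binding Klf16 differed by 0.49, from 6.14, below the median of the sham array, to 6.63. Klf14 was at 6.53 and 6.62 (0.084). The erythroid factor gene Klf1 (6.30 in both pools) and Klf17 (4.67 and 4.78) were dim. Klf8 was not analysed here.

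**Figure D3:**
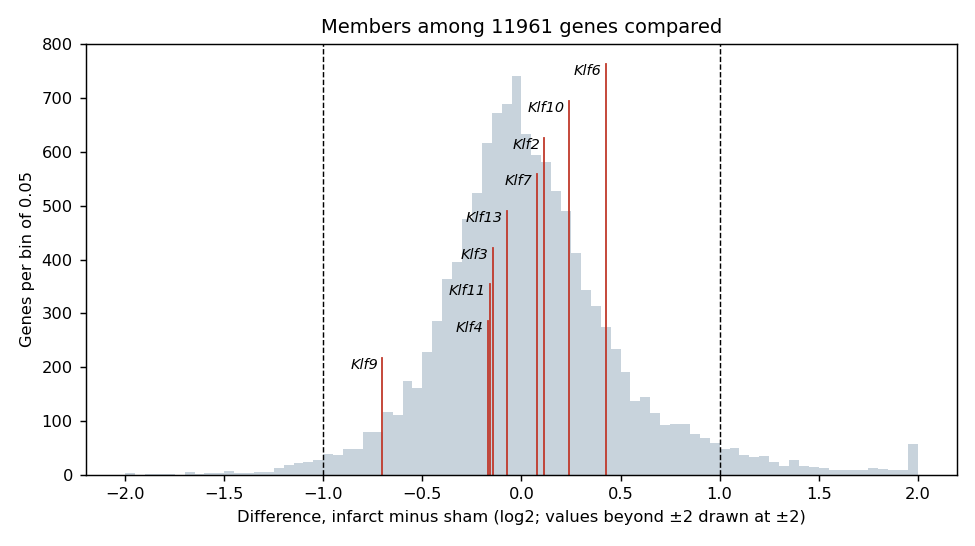
Number of genes by their difference (infarct minus sham, log2, bins of 0.05) over the 11961 genes compared, with red lines at the 9 members compared (line heights serve only to separate the names) and dashed lines at 2-fold. Klf9 (-0.70) stands in the lower tail, 7 members lie within 0.25 of 0, and Klf6 (0.43) stands to the right of them.

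Genes of proteins that work with KLFs differed by less than 2-fold, as did most genes. Of all genes compared, 3.73% were at least 2-fold higher and 1.26% at least 2-fold lower. The SP factors share the zinc fingers of KLFs, and 4 of the 7 on the array were bright enough. Their median was 0.092 (3 of 4 above 0, and 0 of 4 after centring on the housekeeping genes), with Sp3 at 0.19, Sp1 at 0.11 and Sp6 at -0.091. The 3 bright probe sets of Sp1 ranged from -0.050 to 0.46. Of the CtBP genes, through which KLF3 represses, Ctbp2 differed by 0.48 and Ctbp1 by -0.017. The 5 SIN3 and histone deacetylase genes, partners of KLF9, KLF10, KLF11 and KLF13, had a median of 0.071 (4 above 0, and 2 after centring on the housekeeping genes), with Hdac1 (0.67), Sap30 (0.50) and Sin3a (-0.088) the farthest from 0. By their brightest probe sets, the acetyltransferase genes Ep300 (-0.21), Crebbp (-0.056) and Kat2b (-0.024) lay below 0, and above it after centring on the hybridisation controls. Another bright probe set of Crebbp lay at -0.64 with the values as deposited. The genes of the ubiquitin ligases that act on KLF2 and KLF5 lay below 0 too, with Fbxw7 at -0.48 and Wwp1 at -0.23, and the latter was above 0 after that same centring.

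The ERK5 kinase pathway switches on Klf2 through MEF2 factors, for which the MEF2 box printed above is a binding motif. Its 7 genes had a median of -0.20 (2 above 0, and 5 after centring on the hybridisation controls), with Mef2a at -0.42, Mef2d at -0.39 and the ERK5 gene Mapk7 at 0.30. The values of Mef2a and Mef2d are the lowest of their bright probe sets, which reached up to -0.071 and -0.11. The 7 endothelial genes that KLF2 or KLF4 are known to activate or repress had a median of 0.53 (5 above 0, and 4 after centring on the housekeeping genes). As activated and repressed genes are mixed in it, this median is no measure of KLF2 or KLF4 activity. Among the 7 genes, Thbs1, which encodes the matricellular protein thrombospondin 1, was 3.89-fold higher (7.31 and 9.27, difference 1.96). The endothelin gene Edn1 and the lipid receptor gene S1pr1 each differed by 0.69. The aquaporin gene Aqp1 differed by -0.59. The nitric oxide synthase gene Nos3 differed by 0.41 and the thrombomodulin gene Thbd by -0.26, both known to be activated by KLF2. With the housekeeping genes as zero both lay below 0 (-0.052 and -0.73), and with the hybridisation controls as zero both lay above it (0.73 and 0.055).

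The 4 genes listed as KLF5 targets had a median of 0.33, or -0.14 with the housekeeping genes as zero. The fatty acid regulator Ppara differed by -0.75 (9.38 and 8.62), the non-muscle myosin gene Myh10 by 0.59 and the growth factor gene Igf1 by 0.47. Klf5 itself was dim in both pools, as given above.

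Klf9 is known as a gene induced by glucocorticoids. In addition, 8 further genes of the glucocorticoid response were compared, among them the gene of the receptor itself. Their median was -0.15 (2 above 0, and 5 after centring on the hybridisation controls). Fkbp5, a chaperone gene, was at 8.29 (sham) and 9.46 (MI), a difference of 1.17, with another probe set at 0.62. By contrast, Zbtb16, a zinc finger gene, was at 9.33 and 8.71 (-0.62), and Pdk4, a kinase gene of fuel selection, at 12.06 and 11.51 (-0.55). The glucocorticoid receptor gene Nr3c1 differed by -0.16. The difference of Klf9 (-0.70) was below each of these 8, though within the pooled SD of 0.23 from Zbtb16 and Pdk4, and that of Klf15 (-1.10) was below each by more.

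The 7 early response genes of TGF-β, the pathway for which Klf10 and Klf11 are named, had a median of 0.63 (6 above 0). After centring on the housekeeping genes it was 0.16 (4 above 0). Ccn2, a matricellular gene, was at 10.71 and 13.11 (2.40), Pmepa1 at 9.43 and 10.67 (1.24) and Junb at 7.36 and 8.12 (0.76). The 3 bright probe sets of Pmepa1 ranged from 0.43 to 1.24. Smad7, an inhibitor of the pathway, differed by 0.19. Klf10 was at 0.24 and Klf11 at -0.16, or -0.23 and -0.62 with the housekeeping genes as zero.

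KLF genes such as Klf2, Klf4, Klf6 and Klf10 can respond to stimuli within minutes, like the classical immediate-early genes. Of these, 10 of 11 were bright enough, with a median of 0.61 (9 above 0, and 7 after centring on the housekeeping genes). Egr2 (5.45 and 8.11, difference 2.67, dim in the sham pool), Ier3 (10.32 and 11.48, 1.16) and Atf3 (7.70 and 8.76, 1.06) were at least 2-fold higher. With the housekeeping genes as zero, Ier3 (0.70) and Atf3 (0.60) were not, and Egr2 was the 1 gene left past 2-fold. Klf6, at 0.43, lay next to Fos (0.45), and Klf10 (0.24) lay between Nr4a1 (0.057) and Fos. Klf2 and Klf4 lay near the lowest immediate-early genes, Nr4a1 and Egr3 (-0.13, with another probe set at 2.12).

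**Figure D4:**
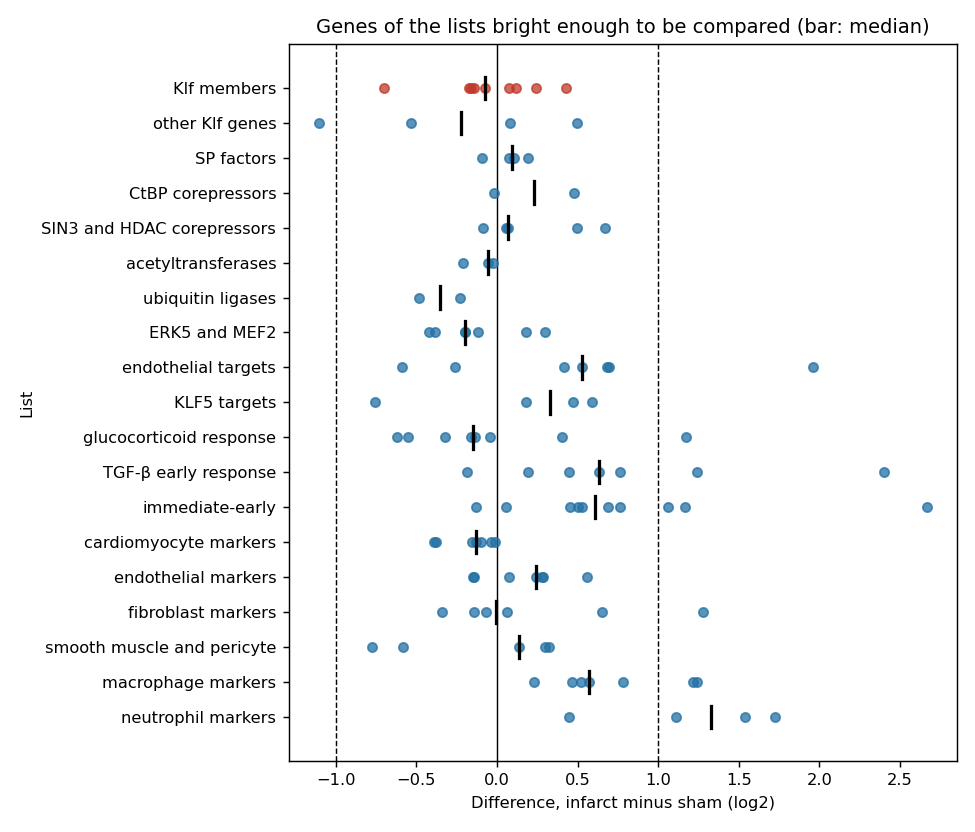
Difference (infarct minus sham, log2) of the genes bright enough in each list, 1 point per gene, with the median of the list as a black bar and dashed lines at 2-fold. The members (red) span -0.70 to 0.43 around a median of -0.075, whereas the medians of the TGF-β, immediate-early, macrophage and neutrophil lists lie between 0.57 and 1.33. The lymphocyte and erythroid lists, with 1 gene each, are not drawn.

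The pools also differed in cell type markers, and in whole tissue fewer cells of a type and less RNA per cell cannot be told apart. All 7 macrophage markers were higher (0.23 to 1.24; 5 of 7 after centring on the housekeeping genes), and their mean value went from 9.85 in the sham pool to 10.57 in the infarct pool, with Cd68 (1.24), Itgam (1.22) and Ms4a7 (0.78) the highest. Likewise, all 4 neutrophil markers compared were higher (0.45 to 1.72; 3 of 4 after that centring), with means of 7.44 and 8.65, and S100a8 (1.72), S100a9 (1.54) and Csf3r (1.11) the highest. The lowest of them, Cxcr2 (5.91 and 6.36), was dim in the sham pool. It was compared only because it was bright in the infarct pool, so its direction adds nothing to that count. All 7 cardiomyocyte markers were lower (-0.39 to -0.010; 2 of 7 after centring on the hybridisation controls, and 6 of 7 after centring on the median, quantile normalisation or removal of a loess trend), with means of 14.17 and 14.00. The lowest were Ryr2 (-0.39), Tnni3 (-0.38) and Ttn (-0.16). These markers lie near the top of the scale of the arrays, with Myh6 at 14.85 in the sham pool, and whether this compressed their differences was not tested. Less bright probe sets of them reached -0.85 (Ttn), -0.67 (Myh6) and -0.60 (Tnnt2), within the range of the Klf9 probe sets.

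Markers of the vessel wall and the stroma went both ways. Of 7 endothelial markers 5 were higher (1 after centring on the housekeeping genes), from -0.15 (Tek) to 0.56 (Pecam1), followed by Emcn (0.29) and Erg (0.28), with means of 9.17 and 9.33. Another bright probe set of Erg lay at -0.21. Of 6 fibroblast markers 3 were higher (-0.34 to 1.28; 2 after centring on the housekeeping genes and 5 on the hybridisation controls; means 11.69 and 11.93), with Postn, a gene of activated fibroblasts, at 1.28, Col1a1 at 0.65 and Dcn at -0.34. Another bright probe set gave 0.19 for Col1a1 and -0.72 for Dcn. Pdgfra counts as lower by its brightest probe set, but its 3 bright probe sets ranged from -0.14 to 0.28. Of 5 smooth muscle and pericyte markers 3 were higher (-0.77 to 0.32; means 9.69 and 9.57; 0 of 5 after centring on the housekeeping genes), with the contractile gene Myh11 at -0.77, the pericyte gene Rgs5 at -0.58 and Pdgfrb at 0.32. Just 1 lymphocyte marker, Cd3e (-0.042), was bright enough, with Cd3d, Cd79a, Ms4a1 and Nkg7 dim, and of the erythroid markers Alas2 (-0.0084) was bright and Hba-a1 dim. What part these cell types had in the differences of Klf9 and Klf6 was not tested.

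**Figure D5:**
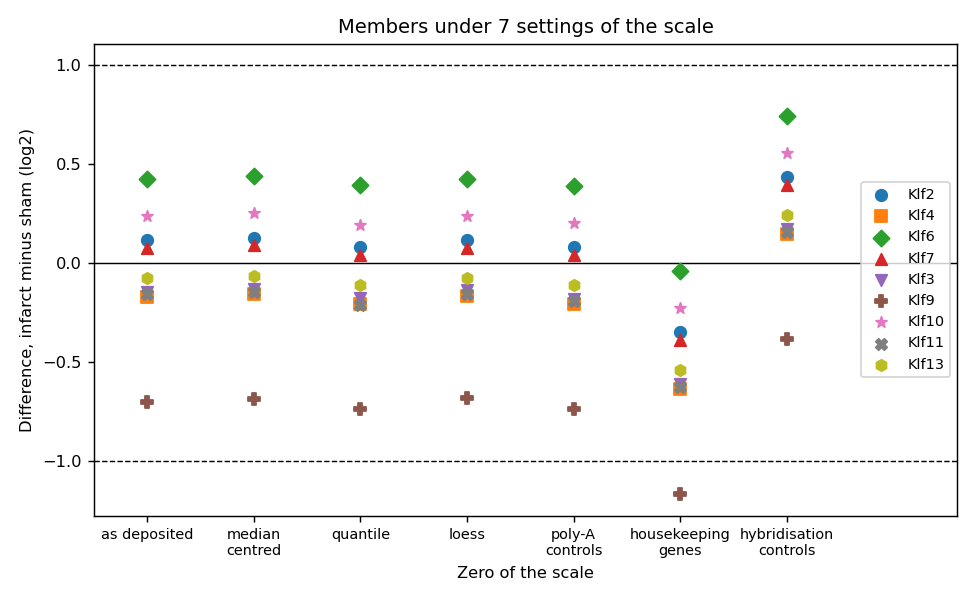
Difference (infarct minus sham, log2) of the 9 members compared, each by its brightest probe set, with the values as deposited and under 6 other settings of the scale. Klf9 lies below 0 in each, from -1.17 (housekeeping genes) to -0.38 (hybridisation controls), whereas Klf6 moves from -0.041 to 0.74 between the same settings.

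The centrings changed the signs of the members and not their order, since a centring subtracts the same amount from every gene. Klf9 was the lowest and Klf6 the highest of the 9 with the values as deposited. Differences between neighbours in that order were small: Klf3 (-0.15), Klf11 (-0.16) and Klf4 (-0.17), or Klf7 (0.076) and Klf2 (0.12), lay far closer to each other than the pooled SD of 0.23. Of neighbouring pairs, only Klf9 and Klf4 were farther apart than this SD. With 2 arrays, no likeness of pattern between genes could be computed.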

How the data were processed

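The authors hybridised each pool of RNA to 1 Affymetrix GeneChip Mouse Genome array. The deposited values are log2 values from RMA, which corrects the background, normalises the arrays together and gives 1 value per probe set. The version of RMA was not given in the sources used here. Precision is limited by the number of arrays, and no depth applies. Values ran from 2.95 to 14.90.

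Probe sets were named through the array's annotation (34945 with 1 symbol, 932 with several, 9160 with none, 64 controls). All 16 Klf genes matched RefSeq (GRCm38.p6) by gene identifier. Of each gene the probe set with the highest mean value was used, and the gene was compared if that reached the median on at least 1 array. Differences were counted past 1 (2-fold), without a test. Every probe set of the 10 genes is given, all other Klf genes on the array, and of each further list the 3 genes farthest from 0, plus some chosen after their values were seen. Members and lists were chosen with earlier results of these data known. Alternatives were 6 scalings (loess span 0.4; 27 poly-A and 18 hybridisation control probe sets), 3 choices of probe set, 2 filters (none, 75th percentile) and a threshold of 1.4. The procedure was tested on simulated data with planted differences past 2-fold and noise below the pooled SD between probe sets. This checks the counting of differences and not the reliability of 1 array per group. Python 3.11.15, numpy 2.4.6, pandas 2.3.3, statsmodels 0.14.6 and matplotlib 3.10.9 were used.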

Additional observations from a re-analysis of the deposited data

How the results depend on the processing

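The zero of the scale was the choice that mattered. Centring on the housekeeping genes gave a median difference of the members of -0.54 and 1 member at least 2-fold lower, Klf9 (-1.17), and centring on the hybridisation controls gave a median of 0.24. Over all genes, the counts of 446 higher and 151 lower became 152 and 936 under the former centring, and 962 and 40 under the latter. Under the other alternatives, the count of members at least 2-fold higher or lower stayed at 0 and the median lay between -0.11 and 0.00049. Under those, each member compared kept its sign, and Klf9 lay between -0.81 and -0.68 and Klf6 between 0.39 and 0.61. No replicate could be left out, since each group has 1 array. No paired analysis was possible because each group has a single pool and the labels give no replicate numbers. Which zero is right was not tested.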
